A study of Homo sapiens with 12 samples.

Results

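In the human embryonic kidney cell line HEK293T, 26460 stretches of RNA were listed as protein-protected in all 3 replicate lists made with a single-strand nuclease and in none of the 3 lists made with a double-strand nuclease. They were taken from the authors' merged list of 293016 sites. Members were chosen by position alone: a merged site was taken when it shared 1 nt or more, strand for strand, with a site of each single-strand list and with no site of any double-strand list. Sites of the mitochondrial genome and of the contig Un_gl000220 were left out, which leaves 292602 merged sites, so that the rule took 9.04% of them. The members were thus selected on the presence and absence of sites in these lists, and counts that follow from the rule are descriptions without a test.

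The cells were cross-linked with formaldehyde at a final concentration of 1%, and their lysates were digested with RNase ONE (ssRNase, which cuts unpaired RNA) or RNase V1 (dsRNase, which cuts paired RNA). Each nuclease was used on lysate with its proteins in place (footprint) and, as a digestion control, on lysate from which SDS and proteinase K had first removed the proteins. These are 4 groups of 3 replicates, 12 libraries in all. The labels tie each replicate list to the footprint library and the digestion control of that number, which gives 6 replicate lists. All groups come from 1 cell line with 1 growth protocol. The labels do not say that replicates were separate cultures, so p-values measure only the spread between these lists, which may be technical. The lists hold positions and a score per site but no read counts, so the read depth is unknown.

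Proteins contact RNA through single-stranded stretches, through helices or through both, and a nuclease can reveal a contact only where it would otherwise cut. A single-strand nuclease therefore reports on protein over unpaired RNA, and a double-strand nuclease on protein over paired RNA. Small nuclear and ribosomal RNAs are textbook cases in which helices and single-stranded loops of the same molecule are bound by different proteins.

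Of the 37364 merged sites found in all 3 ssRNase lists, which were 12.8% of the sites considered, 26460 (70.8%) had no dsRNase site. Of the rest, 6225 (16.7%) overlapped 1 dsRNase list, 2707 (7.24%) overlapped 2 and 1972 (5.28%) overlapped all 3. These 10904 sites with dsRNase support are the class used for comparison below. Absence from the dsRNase lists was the common case in the merged list, at 83.5% of the sites considered. The dsRNase lists were shorter, with 23925, 28413 and 21561 sites in replicates 1, 2 and 3 against 209922, 57481 and 172079 in the ssRNase lists, and absence is measured against these lengths. Among sites without dsRNase support, 157357 were found in 1 ssRNase list, 60497 in 2 and 26460 in 3. Recurrence over the ssRNase lists was therefore the rarer condition.

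The members made up unequal parts of the ssRNase lists. They covered 27772 of 209922 sites in replicate 1 (13.2%), 27297 of 57481 in replicate 2 (47.5%) and 27903 of 172079 in replicate 3 (16.2%). Replicate 2 was the shortest list and set how many sites could recur. Without it, a site in the other 2 ssRNase lists and no dsRNase list was met by 76808 merged sites. Among dsRNase lists, replicate 1 alone removed 1709 ssRNase-reproducible sites, replicate 2 alone 2571 and replicate 3 alone 1945.

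Members stood high in ssRNase replicates 1 and 3 and near the middle of replicate 2. The authors' score has no stated scale, so it was turned into a percentile within each list. The median percentile of the sites under members was 80.4 in replicate 1, 55.8 in replicate 2 and 77.2 in replicate 3. The best-scoring 10% of the list took in 30.4%, 10.9% and 25.9% of them, so in replicate 2 members were placed much like the list as a whole. Sites under merged sites with dsRNase support stood higher in each list, at 88.5, 65.9 and 84.9. Sites found in 1 or 2 ssRNase lists and no dsRNase list stood lower, at 43.7, 31.1 and 39.6. The spread among members was wide. A total of 1788 members (6.76%) had a site in the best-scoring 10% of every ssRNase list, and 1095 (4.14%) lay below the median of every list. Across the 26460 members, the percentiles of 2 lists were related with a Spearman's rho of 0.435 for replicates 1 and 2, 0.508 for 1 and 3 and 0.392 for 2 and 3. These are descriptions across sites that share a cell line and a protocol.

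The share without dsRNase support fell steadily with score. Among the ssRNase-reproducible sites in the lowest 10% by mean percentile, 85.9% had no dsRNase site (95% exact binomial interval 84.8% to 87.0%). In the highest 10% it was 51.2% (interval 49.5% to 52.8%). Each percentile was that of the best site under the merged site, so merged sites that join more list sites can score higher. Exactly 1 site per ssRNase list was held by 90.5% of members and 76.4% of sites with dsRNase support. The part of this in the fall with score was not tested. The share without dsRNase support fell with merged length in the same way, from 92.0% among the shortest 10% of sites to 50.3% among the longest 10%. Longer merged sites offer more positions at which a dsRNase site can overlap. A merged site also spans any dsRNase site it joins, so dsRNase support can itself add length. The fall with length can therefore follow in part from the rule, and these intervals cover counting error only. The best-scoring 10% still held 1912 members.

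**Figure D1:**
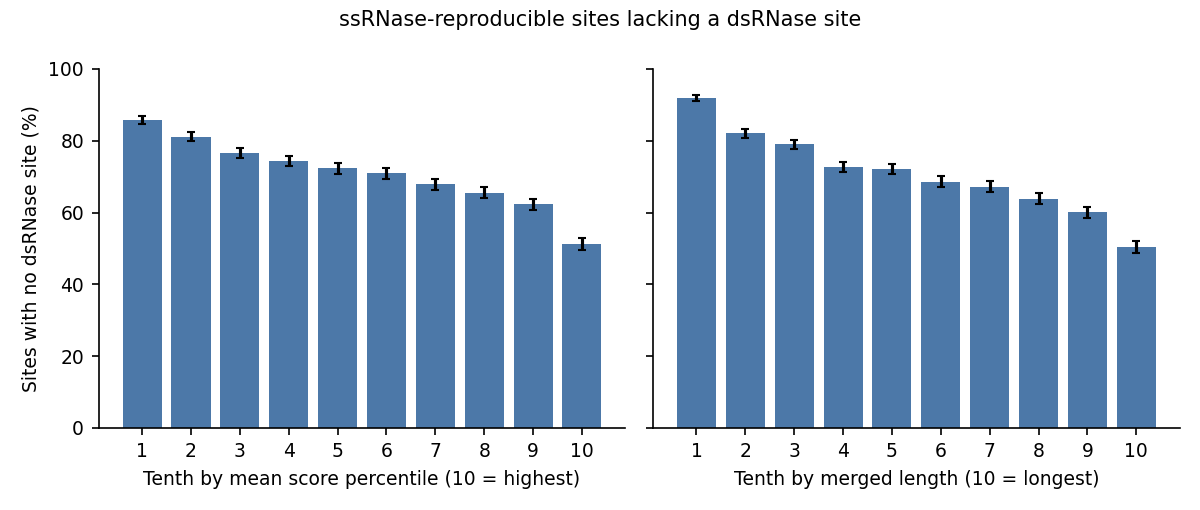
Share of ssRNase-reproducible merged sites with no dsRNase site (%), in 10 classes of mean score percentile over the 3 ssRNase lists (left) and of merged length (right). Bars are shares, error bars are 95% exact binomial intervals, and each class holds 3736 or 3737 sites; the share falls from 85.9% to 51.2% with score and from 92.0% to 50.3% with length.

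Most members were short and simple. The median merged length was 63 nt (quartiles 49 and 89 nt, range 2 to 489 nt), against 82 nt for sites with dsRNase support and 42 nt for sites found in 1 or 2 ssRNase lists. A merged site spans the replicate sites it joins, so lengths in single lists are the fairer measure. Sites under members had medians of 52, 46 and 50 nt in replicates 1, 2 and 3, and sites under merged sites with dsRNase support 58, 48 and 53 nt. In 23940 members (90.5%) each ssRNase list contributed exactly 1 site. In 26107 members (98.7%) some bases were covered by all 3 lists, and over all members the median number of such bases was 40, or 69.7% of the site. The other 353 members were joined by sites that did not all overlap.

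Footprint ends of 2 lists lay a few nucleotides apart at the median, but many lay further apart. In the 23940 members with 1 site per list, 5′ ends of 2 lists lay a median of 4 nt apart in each pair of lists. At the 3′ end the median was 3 nt for replicates 1 and 2, 3 nt for 1 and 3, and 4 nt for 2 and 3. In the same order, 5′ ends lay within 5 nt in 59.3%, 60.2% and 59.7% of these members. For 3′ ends these shares were 62.3%, 62.4% and 60.9%. The 3′ end was identical in 19.3%, 19.6% and 18.8% of these members for the 3 pairs of lists. The 5′ end was identical in 13.7%, 13.7% and 13.3%, so that 3′ ends matched more often in each pair. Ends are named from the strand given in the lists. In the 8330 sites with dsRNase support that had 1 site per list, identical ends were less frequent, at 16.9%, 17.6% and 16.6% for the 3′ end and 11.7%, 12.04% and 11.6% for the 5′ end. End positions follow from the same site calls that chose the members and carry no test.

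The 10 members with the highest mean percentile lay on chromosomes 1, 3, 6, 9, 12, 13 and 14, and 9 of the 10 were on the minus strand. No gene name is given for any position, because an annotation of hg19, the build of the lists, was not used here. The leading member was on the minus strand of chromosome 6 from 89773275 to 89773371, a site of 97 nt of which 91 nt were covered by all 3 lists. It held the highest-scoring site of ssRNase replicate 1 and stood at percentiles 99.988 and 99.995 in replicates 2 and 3. The nearest dsRNase site on that strand was 99173 nt away. Also far from dsRNase sites were the members on the minus strand of chromosome 13 from 45492050 to 45492098 (337857 nt) and on chromosome 14, plus strand, at 96851034 to 96851082 (147998 nt). The member on the minus strand of chromosome 3 from 127793973 to 127794029 was 6143 nt from one.

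The other 6 of these 10 had a dsRNase site within 20 nt in at least 1 dsRNase list, and 0 had such a site in all 3. The second member lay on the minus strand of chromosome 12 from 120730893 to 120730940 and covered 48 nt. On its 5′ side all 3 dsRNase lists held a site that ended at 120731040 and began 25, 24 and 9 nt from the member. Those dsRNase sites were 76, 77 and 92 nt long and stood at percentiles 99.01, 98.75 and 99.36 of their own lists. Sites of both nucleases thus lay side by side, each near the top of its own list. The third member, on the minus strand of chromosome 9 from 89037911 to 89037971, had dsRNase sites on its 3′ side in replicates 1 and 2, at 19 and 14 nt, and none near it in replicate 3.

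The remaining 4 formed 2 pairs of very similar sites, and the second pair had further near matches lower in the ranking. Members on the minus strand of chromosome 1 from 143647026 to 143647075 and from 147834514 to 147834563 were both 50 nt long. Their scores were 6097.6 and 6070.5 in replicate 1, 5245.6 and 5061.8 in replicate 2, and 3360.4 and 3306.9 in replicate 3. A dsRNase site of replicate 3 lay 12 nt from each on the 5′ side, and one of replicate 1 at 51 nt. The nearest dsRNase sites of replicate 2 were 228169 and 26185 nt away. The second pair lay on the minus strand of chromosome 14 from 35025432 to 35025492 and of chromosome 1 from 16993280 to 16993340, each 61 nt long. For these the dsRNase sites of replicates 1 and 3 were 7 to 8 nt away on the 5′ side, and those of replicate 2 were 50 and 51 nt away. Whether the members of a pair share reads that map to both places was not tested, so they may not be separate observations.

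**Figure D2:**
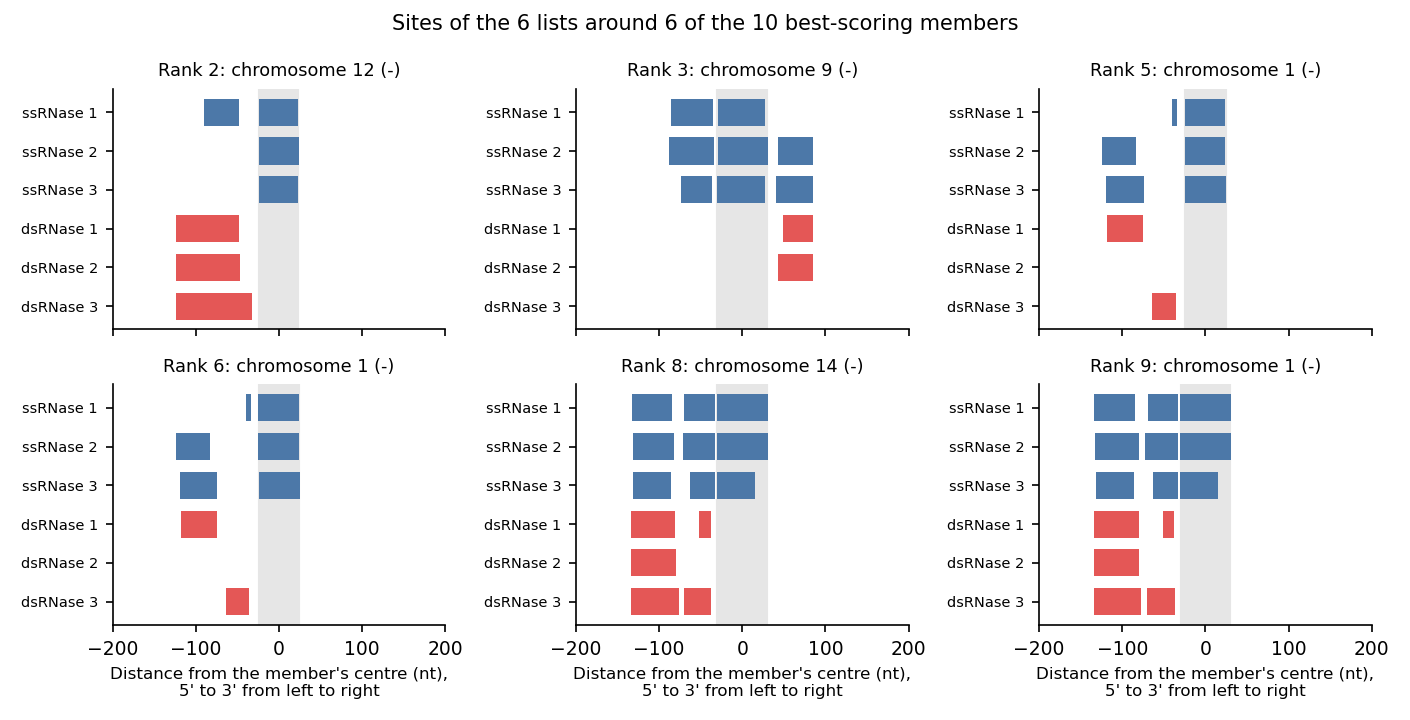
Sites of the 3 ssRNase lists (blue) and 3 dsRNase lists (red) within 200 nt of the centre of 6 of the 10 best-scoring members, those with a dsRNase site within 20 nt; the x axis is the distance from the member's centre in nt, oriented 5′ to 3′, and grey marks the member. That dsRNase sites lie beside the member without entering it follows from the rule and from the choice of panels. They lie on the 5′ side in 5 panels and on the 3′ side for the chromosome 9 member.

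Adjacency of this kind was rarer among members in general. A dsRNase site lay within 20 nt of 11 of the 100 best-scoring members, of 3.30% of the best 1000 and of 479 of all members (1.81%). The 11 include the near-identical members described above, which may not be separate observations. The difference between these sets was not tested. Within 100 nt lay 23 of the best 100, 11.4% of the best 1000 and 8.83% of all members. Of the 2336 members within 100 nt, 1079 had dsRNase sites on the 5′ side only, 1108 on the 3′ side only and 149 on both sides. Neither side prevailed.

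Over all members the median distance to the nearest dsRNase site on the same strand was 3238 nt (quartiles 569 and 29994 nt), against 3478 nt for sites in 1 or 2 ssRNase lists without dsRNase support. To see whether members lay where dsRNase sites were found at all, each strand was divided into windows of 10000 bp. Of the members, 14338 (54.2%) lay in a window that held a dsRNase site elsewhere, and 12122 (45.8%) in a window with none. For sites in 1 or 2 ssRNase lists the first share was 54.7%. The strands differed, with 65.5% of minus-strand members and 41.6% of plus-strand members in such a window. The dsRNase lists themselves held 78.4%, 63.2% and 76.9% of their sites on the minus strand, and their part in this difference was not tested.

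Members were almost evenly divided between strands, with 13951 of 26460 (52.7%, 95% exact binomial interval 52.1% to 53.3%) on the minus strand. Within the ssRNase lists the minus-strand share of sites under members was 53.3% in replicate 1, 52.6% in replicate 2 and 52.7% in replicate 3. These values were a little below those of the whole ssRNase lists, at 56.6%, 58.8% and 58.1%, and of sites found in 1 or 2 ssRNase lists, at 54.1%, 56.7% and 56.4%. The whole merged list had 57.7%. Under sites with dsRNase support the share was 74.1%, 73.1% and 73.2%. Members and sites with dsRNase support did not overlap, with means of 52.8% ± 0.365 and 73.5% ± 0.559 (SD, n = 3 lists each). The difference was -20.6 percentage points, members minus sites with dsRNase support (two-sided exact permutation p = 0.1, Benjamini-Hochberg adjusted p = 0.1 over 2 comparisons). With 3 lists against 3 this p is the smallest possible. Because the dsRNase lists lean to the minus strand, removing sites that overlap them lowers that share among members, so this measure is not independent of the rule and the test supports nothing. The same limit holds by chromosome, where members had the lower share on 23 of 23, with 46.5% to 60.9% against 62.7% to 87.8%. Taken by strand, 81.2% of ssRNase-reproducible plus-strand sites and 63.5% of minus-strand sites had no dsRNase support.

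A feature that the rule did not use was the presence of a protected site on the opposite strand. Of the sites under members, 7634 of 27772 (27.5%) in replicate 1 overlapped an opposite-strand site of the same list. In replicate 2 these were 5187 of 27297 (19.0%) and in replicate 3 7676 of 27903 (27.5%). For sites with dsRNase support the shares were 15.1%, 10.3% and 14.6%, and for sites found in 1 or 2 ssRNase lists 3.45%, 1.92% and 4.40%. The 3 values of members lay above all 3 values of either other class. Replicate 2 was lowest in each class, while over whole lists it was highest, with 7.16%, 11.7% and 8.68% of all sites in replicates 1, 2 and 3. The mean was 24.7% ± 4.91 for members and 13.3% ± 2.65 for sites with dsRNase support (SD, n = 3 lists each), a difference of 11.3 percentage points (two-sided exact permutation p = 0.1, Benjamini-Hochberg adjusted p = 0.1 over 2 comparisons). This is again the smallest p that 3 lists against 3 allow, and the 3 lists hold sites at the same places. Both classes were measured in the same 3 lists. An exact permutation with the list as block gave p = 0.25, also the smallest possible. Within the dsRNase lists opposite-strand overlap was rare, at 0.510%, 0.690% and 0.979% of sites.

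**Figure D3:**
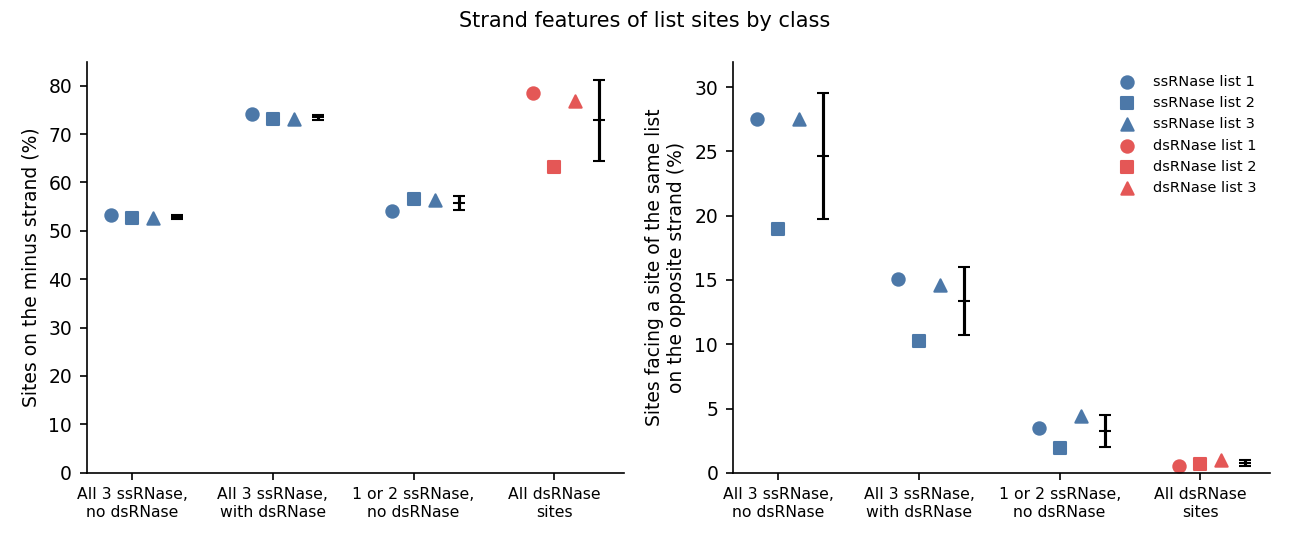
Share of list sites on the minus strand (left, %) and facing a site of the same list on the opposite strand (right, %), for sites under members, under ssRNase-reproducible sites with dsRNase support, under sites in 1 or 2 ssRNase lists, and for all dsRNase sites. Each point is 1 list and bars are mean ± SD of 3 lists; members lie at 52.6% to 53.3% (left) and 19.0% to 27.5% (right).

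The facing share was also set out within classes of score and of length, each taken alone and with strand not held fixed. Counted over any ssRNase list, 7843 members (29.6%) and 1789 sites with dsRNase support (16.4%) faced an opposite-strand site. In the lowest 10% of ssRNase-reproducible sites by score, 14.2% of members and 3.61% of sites with dsRNase support did so. In the highest 10% these were 59.5% and 39.9%. Members had the higher share in each of the 10 score classes and in each of the 10 length classes. The length classes are of merged length, to which a dsRNase site can add only in the sites with dsRNase support. Facing sites were found at 33.1% of plus-strand and 26.5% of minus-strand members, and the part of strand in the contrast was not tested. In 4167 members (15.7%) the facing site was itself a member. These formed 2207 facing pairs with a median overlap of 74 nt and a median start offset of 13 nt, and in 169 of them (7.66%) both ends lay within 5 nt. Facing members were longer, at a median of 99 nt, than the others, at 59 nt, so a merged site's length moved with this feature. A dsRNase site faced 1028 members (3.89%), and in 847 of these cases it was on the minus strand.

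Opposite-strand sites were most frequent far from dsRNase sites. In ssRNase replicate 1, the share of member sites facing a site of the same list was 27.0% within 100 nt of a dsRNase site. It fell to 15.1% at 1001 to 10000 nt and reached 57.8% beyond 100000 nt. Replicate 2 gave 19.6%, 10.2% and 40.0%, and replicate 3 gave 26.8%, 14.8% and 58.8%. All 3 lists thus had their lowest value at the same middle distance and their highest at the greatest distance. The 3789 members beyond 100000 nt (14.3%) differed in strand as well, with 29.8% on the minus strand against 73.3% of the 2336 members within 100 nt. The minus-strand excess of the dsRNase lists enters this distance by construction. From the nearest to the farthest class, median mean percentiles were 68.4, 67.1, 64.8, 67.3 and 71.6. They were lowest and highest in the same classes as the facing share. Median merged lengths were 69, 68, 60, 60 and 69 nt. The part of score, length and strand in the facing shares was not tested.

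**Figure D4:**
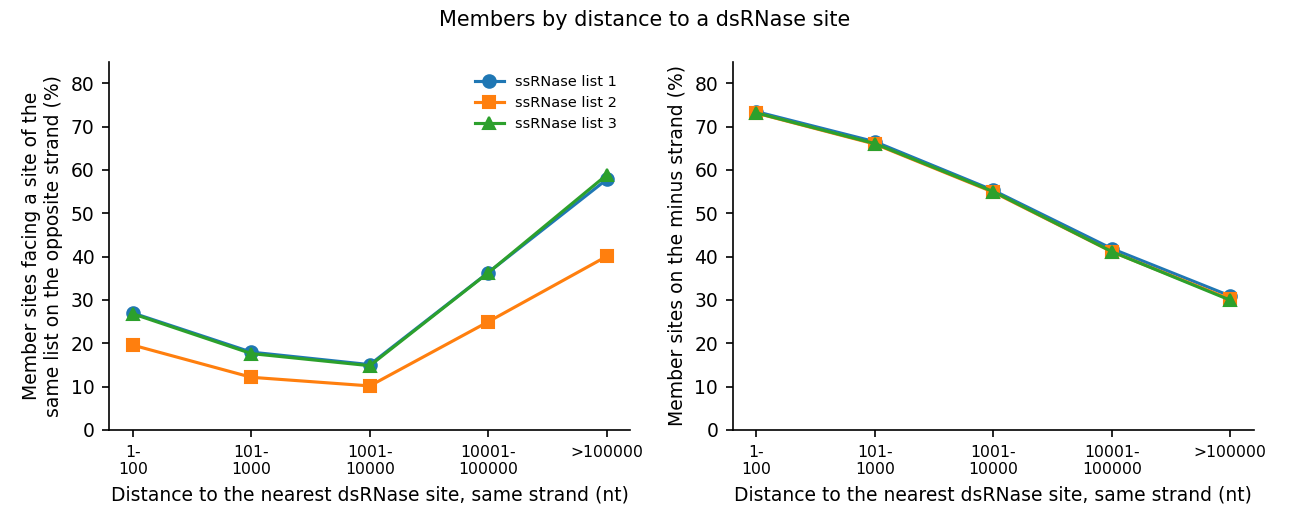
Members by distance to the nearest dsRNase site on the same strand (x axis, nt, 5 classes). Left, the share of member sites facing a site of the same list on the opposite strand (%), and right, the share on the minus strand (%), with 1 line per ssRNase list; facing sites reach 57.8%, 40.0% and 58.8% beyond 100000 nt, where the minus-strand share is 29.9% to 30.9%.

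Members were scattered over many places. They fell in 16735 stranded windows of 10000 bp, of which 11311 (67.6%) held 1 member. The nearest other member on the same strand was a median of 2528 nt away, and 9890 members (37.4%) had another within 1000 nt. At the other end, 501 windows with 5 or more members held 3178 of them. Windows rich in members usually had dsRNase sites too, in 425 of 501 cases (84.8%), against 4553 of 11311 windows with 1 member (40.3%). The part of the amount of protected RNA per window in this difference was not tested.

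The window with the most members was on the minus strand of chromosome 4 from 8620001 to 8630000. It held 18 members with 2028 bases among 48 merged sites. Its ssRNase lists had 54, 30 and 45 sites and its dsRNase lists 6, 3 and 3, none of them on a member. The next window, from 8630001 to 8640000, held 12. Across these 30 members only 13 different combinations of length and the 3 best scores occurred. Of these combinations 9 were found more than once and took in 26 members, and their 17 repeats were spaced 5634 to 5650 nt apart (median 5638 nt). For these 26 members, the same length and scores thus recurred at a nearly fixed interval, and they may not be separate observations. Whether reads were placed at several of these positions was not tested.

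In the other 8 windows with the most members, 0 to 2 members had exactly the length and best scores of another member anywhere. The plus-strand window of chromosome X that starts at 24770001 held 14 members among 62 merged sites, with 60, 20 and 48 ssRNase sites and 5, 9 and 6 dsRNase sites. Plus-strand windows with 13 members start at 72330001 and 102090001 on chromosome 7 and at 34150001 on chromosome 17. Plus-strand windows with 12 members start at 16160001 on chromosome 1, 139720001 on chromosome 9 and 840001 on chromosome 16. A minus-strand window with 12 starts at 119000001 on chromosome 8.

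Of these 10 windows, 1 had no dsRNase site on its strand, namely the plus-strand window of chromosome 7 that runs from 102090001 to 102100000. There the ssRNase lists held 22, 14 and 23 sites covering 1559, 861 and 1500 bases. Its minus strand held 11 further members, with 20, 12 and 28 ssRNase sites and 1, 0 and 1 dsRNase sites. In the other 9 windows the opposite strand held at most 1 member. The other windows had dsRNase sites between or beside their members, which the rule permits.

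**Figure D5:**
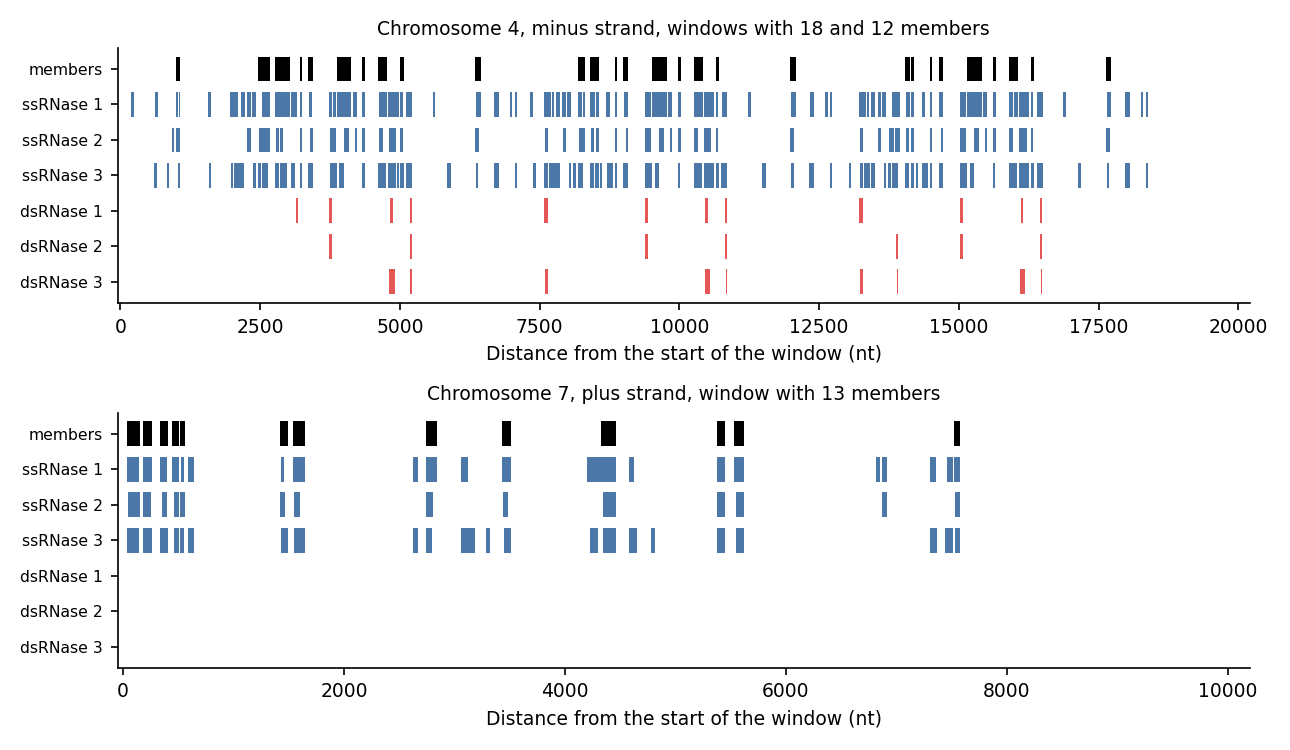
Members (black) and sites of the ssRNase (blue) and dsRNase (red) lists in the 2 adjoining windows of chromosome 4, minus strand, with 18 and 12 members (top) and in the window of chromosome 7, plus strand, with 13 members (bottom); the x axis is the distance from the window's start in nt. The chromosome 4 pattern recurs about every 5638 nt with dsRNase sites between members, and the chromosome 7 window has no dsRNase site on the strand shown.

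The members with the longest stretch covered by all 3 ssRNase lists ranged from 164 to 216 nt. The longest lay on the minus strand of chromosome 19 from 57981475 to 57981738, where 216 of 264 nt were covered in each list, from 57981491 to 57981706. It stood at percentiles 96.7, 90.7 and 96.7, and its nearest dsRNase site was 3238 nt away. The next, at 9825929 to 9826317 on chromosome 21, plus strand, had 204 of 389 nt covered by all 3 lists and a dsRNase site 71 nt away. The other 8 were minus-strand sites of chromosomes 1, 2, 4, 9, 10, 11, 14 and X. Of the 10 members, 8 faced an ssRNase site on the opposite strand, the exceptions being those on chromosomes 10 and 21.

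Members were spread over the chromosomes much like the other classes. Chromosome 1 held 2599 of them (9.82%), chromosome 19 held 2028 (7.66%) and chromosome 17 held 1585 (5.99%). On chromosome 19 the share was 6.99% for sites with dsRNase support and 5.45% for sites in 1 or 2 ssRNase lists. The share of ssRNase-reproducible sites without dsRNase support ran from 65.8% on chromosome X (95% exact binomial interval 63.2% to 68.4%) to 74.7% on chromosome 18 (interval 69.8% to 79.1%). These shares carry no test.

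At the edge of the rule, 19 members lay directly beside a dsRNase site, 1 nt away, the first in genome order being on the minus strand of chromosome 1 from 24301455 to 24301532. In 153 members some ssRNase list contributed fewer than 10 nt. The smallest contribution was 1 nt, in a plus-strand site of 3 nt at 84903092 to 84903094 of chromosome 3. Just outside the rule, 163 of the sites with dsRNase support had a longest dsRNase site under 10 nt, against a median of 38 nt. The shortest was 1 nt, in a minus-strand site at 220231385 to 220231526 of chromosome 1 and a plus-strand site at 2111851 to 2112020 of chromosome 16.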

How the data were processed

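The submitters' processing notes name cutadapt 0.9.5, TopHat2 2.0.9 and the build hg19. The file names point to CSAR site calls at a 5% false discovery rate. The labels' protocols include a DSN normalization of the libraries, a step that lowers abundant sequences before sequencing. Each replicate list gives a score per site, deposited by the authors without a stated scale. How reads were filtered, how multiply mapped reads were placed and how lists were merged is not stated in the labels or files used here. Positions were read as 1-based and inclusive.

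Overlap, distance and opposite-strand overlap were computed with Python 3.11.15, numpy 2.4.6 and pandas 2.3.3. Exact intervals (95%) and exact permutation tests used scipy 1.17.1, adjustment statsmodels 0.14.6 and figures matplotlib 3.10.9. The overlap and distance code was tested on simulated lists, where 0 of 146400 calls differed from those made by enumerating bases. The members and the lists of features were chosen with earlier results of these data known. Named sites were the 10 members of highest mean score percentile, the 10 with the longest stretch covered by all ssRNase lists, the 10 windows with the most members, and those at the edge of the rule. Both tests compare 2 values of each ssRNase list, so a fit with the list as block was an alternative. Distance classes, near-identical members and neighbouring dsRNase sites of the best members were examined after their values had been seen. Alternatives varied the overlap, the dsRNase exclusion, the score threshold, the list length and the replicates. The reference at hand belongs to another build, so gene lists, motifs and sequences were not analysed here.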

Additional observations from a re-analysis of the deposited data

How the results depend on the processing

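The number of members (26460), their minus-strand share (52.7%) and the share with another member within 1000 nt (37.4%) were unchanged when 50% of the replicate site had to lie in the merged site and when the authors' contributing sites were used. A merged site spans the replicate sites it joins, so these settings left little that could change and do not speak to stability. Reciprocal overlap of 50% gave 24255 members, with shares of 54.8% and 34.8%. With no dsRNase site within 100 nt there were 24124 members, 50.7% and 34.9%. The better-scoring 50% of each list gave 14113 members, 58.0% and 31.3%. Lists of equal length, the 21561 best-scoring sites each, gave 4253 members, 54.6% and 16.9%, and fewer sites entered by construction. The reciprocal, better-scoring and equal-length settings also loosened the dsRNase exclusion. Their members can therefore include sites that overlap a dsRNase site of the full lists. Leaving out 1 ssRNase or dsRNase replicate gave 28169 to 76808 members, 53.0% to 54.5% and 37.9% to 52.9%, the highest number without ssRNase replicate 2. The minus-strand difference of -20.6 percentage points and the opposite-strand difference of 11.3 kept their sign without each ssRNase list, at -20.7 to -20.5 and 10.6 to 12.6, alternatives chosen after seeing the data. The minus-strand difference is not independent of the rule, so its unchanged sign supports nothing. With a replicate block, which pairs both values of a list, the differences were again -20.6 and 11.3 with an exact permutation p of 0.25, the smallest possible, so no p here speaks to stability. For the reciprocal overlap, score and dsRNase-distance alternatives and the replicates left out, the cause was not tested.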

Other observations

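Near-identical members were also found below the 10 best-scoring ones. Of the 100 members of highest mean percentile, 12 had another member within 2 nt of their length and within 5% of their score in all 3 ssRNase lists. The member from 16993280 to 16993340 of chromosome 1, described above, also matched minus-strand members of that chromosome from 149224057 to 149224118 and from 16840617 to 16840677. Minus-strand members of chromosome 1 from 147511002 to 147511064 and from 145969268 to 145969330, each 63 nt long, matched as well. Besides these, the 12 included 61 nt sites at 35016023 to 35016083 of chromosome 14 and 17222578 to 17222638 of chromosome 1, both plus strand. Sites of 144 and 145 nt on the minus strand of chromosome 1 from 212114726 to 212114869 and of chromosome 10 from 81807478 to 81807622 formed a further pair. Over all members, 999 (3.78%) had exactly the length and best scores of another member, but only 13 of these were among the 3351 members with a mean percentile above 90. Among lower-scoring members the same score values recurred often, so an exact match can also be a tie between unrelated sites. The 999 are therefore not a count of duplicated places. Whether these members share reads or match through tied scores was not tested.

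The contigs outside the numbered chromosomes, X and Y held 57 members.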
